A study of Mus musculus with 7 samples.

Results

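The genes described here encode the machinery that copies DNA and the enzymes that supply its deoxynucleotides. A list of 37 symbols was used, from Orc1 and the Mcm2 to Mcm7 helicase subunits to E2f1 and Ccne1, and a gene was kept if its mean normalized count over the 7 libraries was at least 10. All 37 had a row among the 16476 genes of the deposited table and all 37 reached that mean. Fen1, with a mean of 10.8, lay closest to the limit, and the next lowest was Orc1 with 34.8. RNA came from bronchoalveolar lavage cells, which are washed out of the airspaces of the lung, of C57BL/6 mice. All mice had received lipopolysaccharide (LPS), a product of Gram-negative bacteria, by the trachea 3 days earlier. Antibodies were used to take out neutrophils before extraction. The control group held 4 libraries of the genotype LysM Cre. The knockout group held 3 libraries of the genotype Netrin1loxp/loxp LysM Cre, so that by the labels both groups carried Cre and both received LPS. The lysozyme M promoter drives Cre in macrophages, monocytes and neutrophils, and lymphocytes in the same fluid are not its target. The labels give neither age nor sex, nor whether a library was 1 mouse or a pool, so the tests rest on a spread among libraries that may be partly technical.

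Before S phase, the origin recognition complex, CDC6 and CDT1 load rings of MCM2 to MCM7 onto origins. CDC45 and the GINS complex then turn each ring into an active helicase, primase and the DNA polymerases copy both strands, and the PCNA clamp, loaded by the RFC complex, holds the polymerases in place. Thymidylate synthase, ribonucleotide reductase and thymidine kinase supply deoxynucleotides, and many of these genes are transcribed at the entry to S phase by E2F factors. Most cells in a lavage are not cycling, but alveolar macrophages can renew themselves in the airspace and activated lymphocytes divide.

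Because E2F factors bind near the starts of many such genes, promoter windows were searched for a core E2F word in its 4 forms, TTTCCCGC, TTTCGCGC, TTTGCCGC and TTTGGCGC, on both strands. The windows, from RefSeq on GRCm38.p6, run from 250 bases before to 50 after a gene's start, and 30 of the 37 members had one. The word was found in 13 of these 30 genes (43.3%), against 2.60% of the 27025 genes with a window and 4.69% of the 9536 genes with a window that were also tested here. Shown are 3 stretches with the word and 1 without it, each the 180 bases before the start on GRCm38, written 5′ to 3′ along the gene, with E2F words in capitals. They were picked after the values were seen, to set called and uncalled members side by side. Mcm5 and Mcm6 rose in knockouts, Pola1 did not pass the test over 7 libraries, and Tyms rose although its window holds none of the 4 forms.
Mcm5 (chr8:75109329-75109508, plus strand): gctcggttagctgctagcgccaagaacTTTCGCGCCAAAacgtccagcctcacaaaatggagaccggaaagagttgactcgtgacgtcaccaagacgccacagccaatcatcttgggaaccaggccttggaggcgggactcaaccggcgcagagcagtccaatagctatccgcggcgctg
Mcm6 (chr1:128359706-128359885, minus strand): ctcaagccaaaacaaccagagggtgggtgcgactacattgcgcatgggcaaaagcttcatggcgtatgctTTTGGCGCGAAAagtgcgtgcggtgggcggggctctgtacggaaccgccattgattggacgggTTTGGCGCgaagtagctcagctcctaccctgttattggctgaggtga
Pola1 (chrX:93632156-93632335, minus strand): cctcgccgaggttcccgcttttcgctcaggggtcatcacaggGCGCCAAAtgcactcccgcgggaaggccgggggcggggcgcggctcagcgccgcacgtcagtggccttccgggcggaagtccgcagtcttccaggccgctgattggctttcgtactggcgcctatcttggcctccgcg
Tyms (chr5:30073626-30073805, minus strand): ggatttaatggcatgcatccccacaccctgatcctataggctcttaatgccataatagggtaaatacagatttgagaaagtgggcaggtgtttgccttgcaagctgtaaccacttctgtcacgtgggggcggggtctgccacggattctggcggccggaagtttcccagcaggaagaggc
In Mcm5 and again in Mcm6, 2 words on opposite strands overlap into a run of 12 capitals, and Mcm6 holds a further word 47 to 40 bases before the start. The word was present in 5 of the 12 members with a window that rose and in 8 of the 18 that did not pass the test. The CCAAT box, searched as CCAAT on both strands, was found in 17 of the 30 members against 41.1% of all genes with a window. A match describes letters, not binding.

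Whole reads recovered from the deposited values came to between 9903284 and 13353733 per library. Ntn1 itself had 1, 4, 9 and 3 reads in controls and 1, 0 and 1 in knockouts (2-sided exact permutation p = 0.0571, smallest possible 0.0286). Some libraries stood apart. Lyz2, the gene whose locus carries the Cre, was at 76927 and 118781 normalized counts in control replicates 1 and 4 but only 721 to 1052 elsewhere. The labels give all 4 controls the same genotype and no number of Cre alleles, so the Cre genotype of control replicates 1 and 4 is in doubt. Knockout replicate 1 had higher neutrophil and erythroid marker levels than any other library. The summed level of 10 neutrophil markers was 73642 there, 23813 and 24660.1 in knockout replicates 2 and 3 and 15009 to 19007 in controls. For 7 erythroid markers it was 136707, against 10593, 6936 and 1254 to 26210.5. The number of members called is therefore given with and without these libraries. Counts for role groups and marker lists rest on all 7 libraries unless stated. The sums of 9 alveolar macrophage markers were 58871 to 94938 in controls and 75380.4 to 126582 in knockouts. Chil3 made up most of each sum, at 49994 to 105895 normalized counts. Among the other markers of that list, levels ran from 104 to 507 for Siglecf up to 1911 to 6479 for Mrc1. Ptprc, the pan-leukocyte gene, was at 19487 to 25798 throughout.

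Some of the replication genes were higher in the knockout group, most of all in knockout replicates 2 and 3. Of 37 members, 16 (43.2%) rose at an adjusted p under 0.05 and 0 fell, where 10.4% of the 12963 genes tested were called higher and 11.3% lower. The median log2 fold change was 0.38 over the members and 0.014 over all genes tested, and 32 of 37 fold changes were above 0. The rises were moderate: among the called genes they ran from 0.26 (Gins4) to 0.84 (Prim2) on the log2 scale. For 13 members every knockout library lay above every control library, as it did for 17.4% of all genes tested, and for 0 members every knockout lay below (16.3% of all genes). At an unadjusted p under 0.05 limma found 1 member lower, Pold3. On recovered reads, edgeR called 17 members higher (10.5% of all genes) and 0 lower (11.5%), DESeq2 17 (10.9%) and 0 (12.4%), and limma-voom with library weights 21 (13%) and 0 (13.9%). All fold changes refer to log2 of the normalized count plus 1. Such bulk values cannot tell apart a changed number of cells of a type and a changed amount of RNA per cell.

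**Figure D1:**
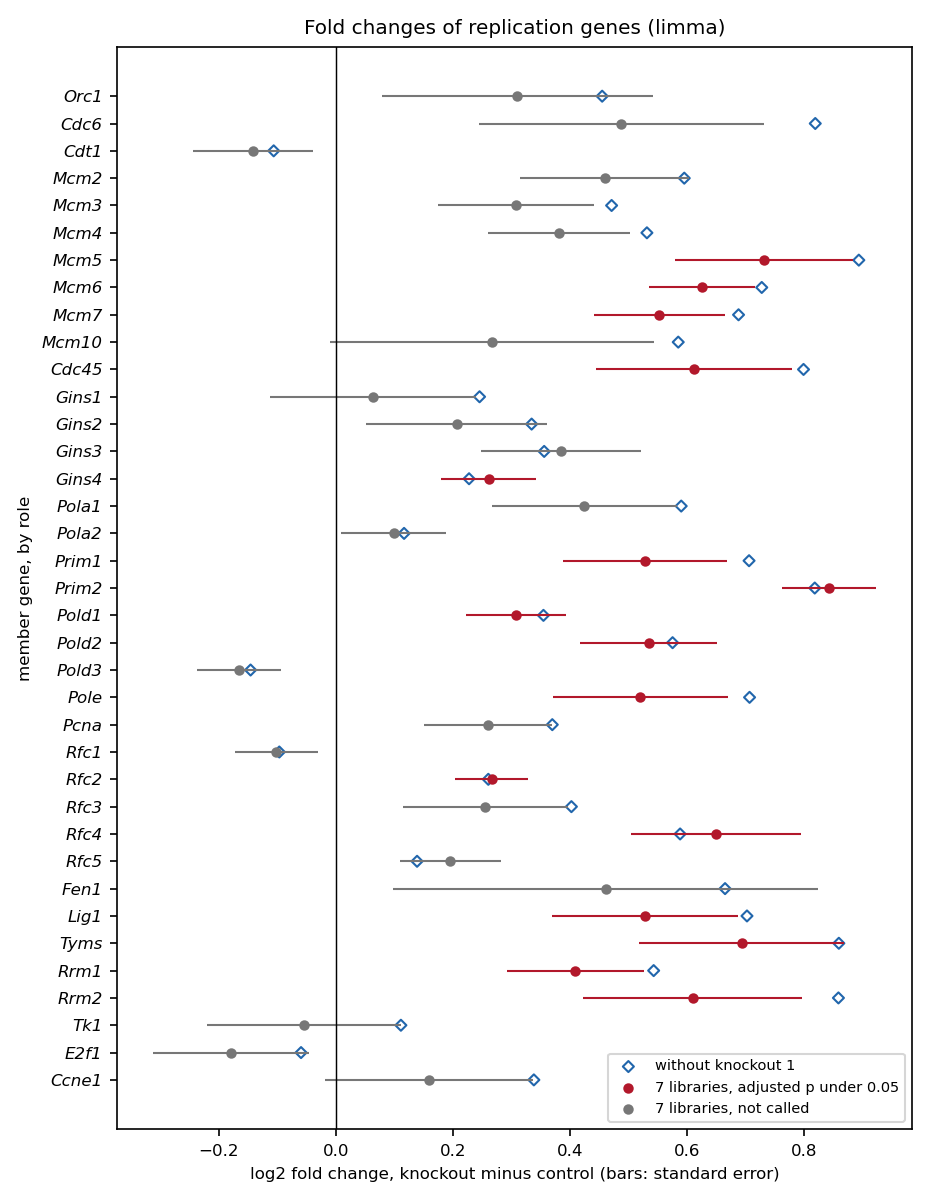
Log2 fold change (knockout minus control, limma) on the x axis, with bars for the standard error, and the 37 members in role order on the y axis. Filled red points passed an adjusted p of 0.05 over 7 libraries, grey ones did not, and open diamonds give the value without knockout replicate 1. Prim2 stands farthest to the right at 0.84, and 5 members lie left of 0.

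The number of calls depended on which libraries were kept. Among the knockouts it was 21 without replicate 1 (9.05% of all genes called higher), 4 without replicate 2 (5.35%) and 7 without replicate 3 (7.93%). Among the controls it was 13 without replicate 1 (8.88%), 7 without replicate 2 (6.89%), 9 without replicate 3 (8.5%) and 9 without replicate 4 (6.9%). With the controls high in Lyz2 (replicates 1 and 4) left out, 4 members rose (Mcm5, Mcm6, Prim2 and Pold2), against 4.8% of all genes. With the low ones (replicates 2 and 3) left out, 3 rose (Mcm6, Prim2 and Rfc4), against 4.74%. Fits with fewer libraries can also detect less. The median member log2 fold change was 0.53, 0.28 and 0.34 without knockout replicates 1, 2 and 3, and 0.34 to 0.42 without a single control. It was 0.445 without control replicates 1 and 4 and 0.32 without control replicates 2 and 3. Mcm5, Mcm6, Mcm7 and Prim2 rose whichever single library was left out, and Mcm6 and Prim2 in all 21 alternatives run.

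Among the genes that license origins, 3 of 9 rose (against 10.4% of all genes tested), all of them subunits of the MCM ring. Mcm6 (ENSMUSG00000026355, GRCm38 chromosome 1, 128331590 to 128359664, minus strand) stood at 976, 931, 894 and 935 normalized counts in control replicates 1 to 4 and at 1249, 1613 and 1482 in knockout replicates 1 to 3. The groups did not overlap, and every knockout exceeded the highest control (log2 fold change 0.63, SE 0.09, adjusted p = 0.00278). Mcm5 (chromosome 8, 75109569 to 75128439, plus strand) held 565, 437, 398 and 451 in controls and 609, 870.1 and 837 in knockouts (log2 fold change 0.73, SE 0.15, adjusted p = 0.0116). Knockout replicate 1 was only a little above control replicate 1, whereas the other two knockouts were far above it. Mcm7 (chromosome 5, 138164583 to 138172422, minus strand) held 499.7, 478, 449 and 475 in controls and 578, 812 and 722 in knockouts (log2 fold change 0.55, SE 0.11, adjusted p = 0.0104), again without overlap.

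The other 3 ring subunits did not pass the test over 7 libraries, each with knockout replicate 1 inside the control range. Mcm2 was at 449.9, 385, 311 and 366 in controls and 427, 567 and 566 in knockouts (log2 fold change 0.46, adjusted p = 0.0515). Mcm4 was at 822, 772, 706 and 792 in controls and 816, 1178 and 1058 in knockouts (log2 fold change 0.38, adjusted p = 0.0529). Mcm3 was at 711, 612, 596 and 618 in controls and 625, 940.3 and 818 in knockouts (log2 fold change 0.31, adjusted p = 0.131). In all 3, knockout replicates 2 and 3 were above every control. edgeR called Mcm2 and Mcm4, and all 6 ring subunits passed limma without knockout replicate 1. On a per-length scale, control levels ranged from 54.3 (Mcm2) to 215 (Mcm4) normalized counts per kilobase of annotated exon. This length counts the exon bases of all annotated transcripts of a gene, so these RNA values do not measure numbers of subunits.

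The loaders of the ring were not called. Orc1, the largest origin recognition subunit, held 39.6, 33.3, 31.0 and 22.6 normalized counts in controls and 31.4, 44.2 and 41.6 in knockouts (log2 fold change 0.31, adjusted p = 0.366), and its groups overlapped. Cdc6 had a log2 fold change of 0.49 (adjusted p = 0.181). Knockout replicate 1, at 96.3, was below all 4 controls, and the other knockouts were at 205 and 182. Cdt1, the partner of CDC6 in loading, had a mean of 409.9 ± 49.5 in the 4 controls (± SD) and 369.9 ± 17.0 in the 3 knockouts (log2 fold change -0.14, adjusted p = 0.349).

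**Figure D2:**
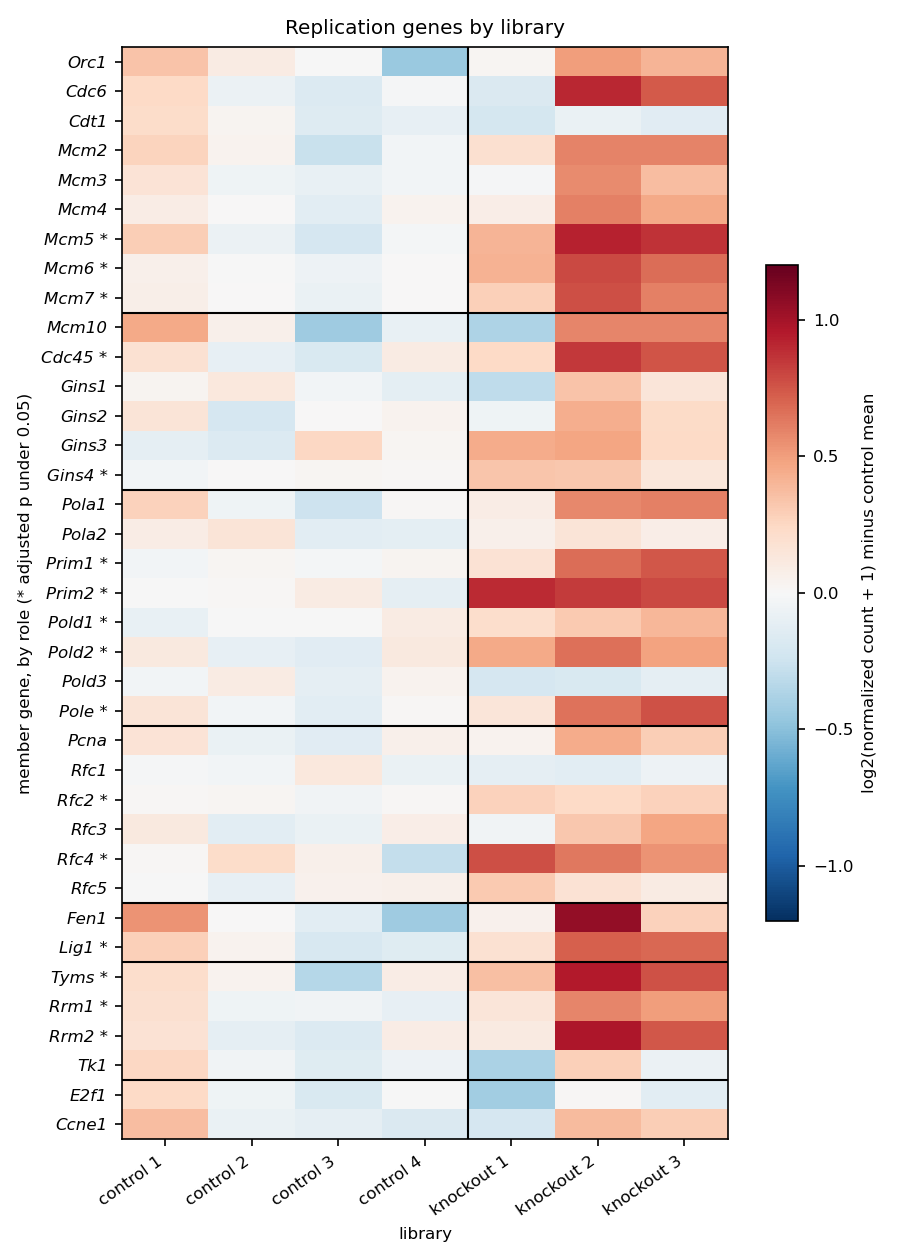
Heat map of log2(normalized count + 1) minus the mean of the 4 controls, members in rows by role (black lines part the roles, asterisks mark an adjusted p under 0.05) and libraries in columns. Knockout replicates 2 and 3 are red in most rows, and knockout replicate 1 is pale or blue in many of the same rows but red for Prim2 and Rfc4.

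Of the 6 genes that activate the helicase, 2 rose (against 10.4% of all genes tested). Cdc45 (chromosome 16, 18780447 to 18811987, minus strand), which joins the MCM ring at firing, held 125, 103, 96.5 and 118 in controls and 129.8, 198 and 186 in knockouts (log2 fold change 0.61, SE 0.17, adjusted p = 0.0328). All knockouts were above all controls, knockout replicate 1 by the least. Gins4, 1 of 4 GINS subunits, rose by 0.26 on the log2 scale (adjusted p = 0.0497). This call was lost without knockout replicate 1 (adjusted p = 0.12) and with edgeR (adjusted p = 0.052). It held in 1 of 7 fits with a single library left out and in 4 of 21 alternatives. Gins1 had the largest p of the group, with 64.0, 68.5, 61.1 and 57.7 in controls and 50.7, 79.8 and 69.6 in knockouts (log2 fold change 0.064, 95% interval -0.34 to 0.46). Gins2, Gins3 and Mcm10, a scaffold of the starting fork, were not called (adjusted p of 0.368, 0.0763 and 0.52). Mcm10 was at 71.0, 138 and 138 in knockouts, so 1 library lay near the lowest control (68.1) and 2 above the highest (126).

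Primase and polymerase genes gave the largest share of rises among groups of more than 4 genes, 5 of 8 (against 10.4% of all genes tested). Prim2 (ENSMUSG00000026134, chromosome 1, 33453810 to 33669795, minus strand), the large primase subunit, had the smallest p of all members. It held 239, 241, 256 and 222 normalized counts in controls and 444, 429 and 416 in knockouts, 239 ± 13.8 (SD, n = 4) against 429.5 ± 14.3 (SD, n = 3). No control came near a knockout, and knockout replicate 1 was the highest of the 3 (log2 fold change 0.84, SE 0.08, adjusted p = 0.000656, a 1.79-fold rise with a 95% interval of 0.66 to 1.02 on the log2 scale). Its partner Prim1, the catalytic subunit, rose by 0.53 (SE 0.14, adjusted p = 0.029), but with knockout replicate 1 at 174 and the others at 246 and 260.2. The order of the knockout libraries thus differed between the subunits of primase.

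Polymerase delta was split. Its catalytic subunit Pold1 rose by 0.31 (adjusted p = 0.0345) and the accessory subunit Pold2 by 0.53 (adjusted p = 0.0143), both without overlap between groups. Pold3, a further accessory subunit, had a log2 fold change of -0.17 (adjusted p = 0.132), with 797 ± 50.3 (SD) in the 4 controls and 709 ± 25.4 in the 3 knockouts. Pole, the catalytic subunit of the leading-strand polymerase, rose by 0.52 (adjusted p = 0.0379), although knockout replicate 1 (237) lay just below control replicate 1 (238). In polymerase alpha, which works with primase, Pola1 had a log2 fold change of 0.42 (adjusted p = 0.0872). Pola2 was at 493, 515, 423 and 428 in controls and 484, 515 and 489 in knockouts (log2 fold change 0.10, adjusted p = 0.461), with overlap throughout.

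Of the clamp and its loader, 2 of 6 rose (against 10.4% of all genes tested), both loader subunits. Rfc4 (chromosome 16, 23113943 to 23127737, minus strand) held 82.3, 94.9, 85.0 and 66.5 in controls and 139.9, 127 and 119 in knockouts (log2 fold change 0.65, SE 0.14, adjusted p = 0.0152), with knockout replicate 1 the highest library. Rfc2 rose less, by 0.27 (SE 0.062, adjusted p = 0.018), and its knockouts were close together at 577, 563 and 577. Rfc5 also had every knockout above every control but did not pass the test (log2 fold change 0.20, adjusted p = 0.135). Rfc1, the large subunit, was at 757, 743, 833 and 721 in controls and 706, 697 and 729 in knockouts (log2 fold change -0.10, adjusted p = 0.331), and its 95% interval of -0.26 to 0.059 holds no rise of the size seen for Rfc4. Rfc4 shares 12.7% of its exonic bases with Eif4a2 and Rfc2 15.1% with Lat2, so reads there could not be assigned without strand. Similar shares were 12.6% for Mcm7, with 4 other genes, 10.8% for Orc1, with Gm12743, and 10.7% for Rfc5, with Wsb2. Pcna, the clamp, had the highest control level per length of all members, 681 normalized counts per kilobase of exon. It was at 1820.0, 1544, 1478 and 1695 normalized counts in controls and 1674, 2214 and 2002 in knockouts, with knockout replicate 1 within the control range (log2 fold change 0.26, adjusted p = 0.122).

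**Figure D3:**
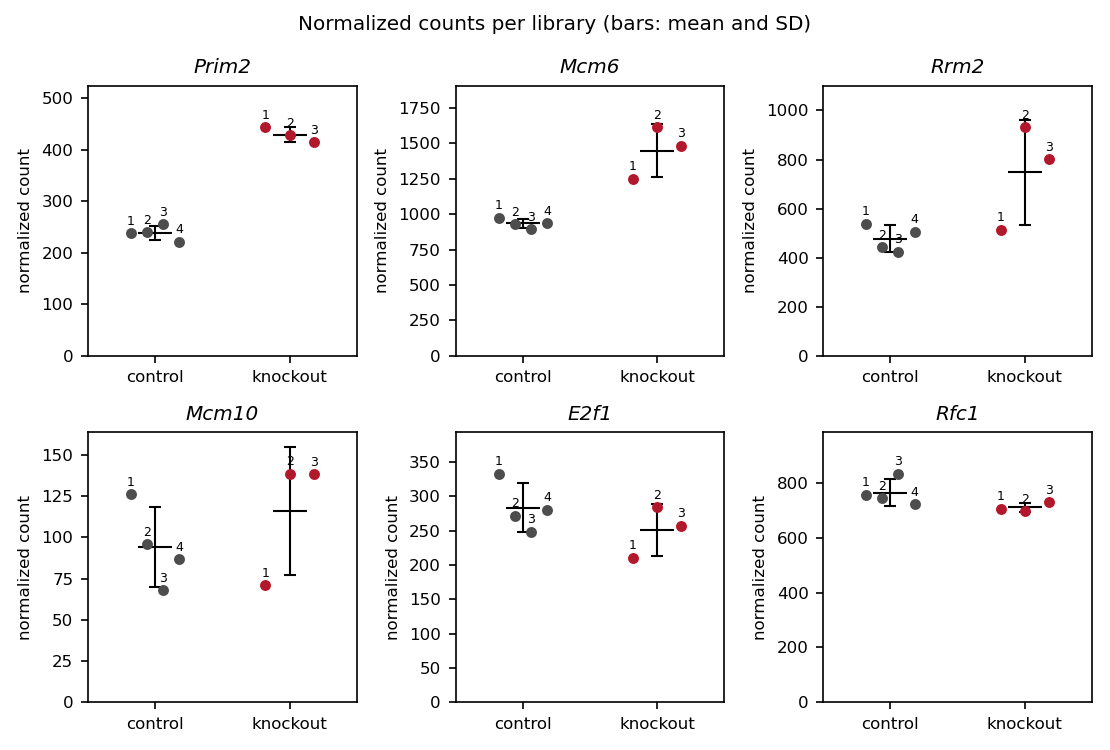
Normalized counts of 6 members in each library, with replicate numbers above the points and bars for the mean and SD; each y axis starts at 0. For Prim2 all 3 knockouts lie between 416 and 444, above all controls, while for Rrm2 and Mcm10 knockout replicate 1 sits among the controls.

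Lig1, the ligase that joins Okazaki fragments, held 498, 421, 358 and 369 in controls and 461, 672 and 656 in knockouts. Knockout replicate 1 was below control replicate 1 and the other knockouts were above all controls (log2 fold change 0.53, SE 0.16, adjusted p = 0.0449). Fen1, the flap nuclease of the same step, was at only 13.2, 8.81, 7.96 and 6.27 in controls and 9.13, 19.2 and 10.8 in knockouts (log2 fold change 0.46, SE 0.36, adjusted p = 0.39). Of its exonic bases, 84.2% lie under exons of other genes, 78.8% under the antisense gene Gm10143 on the opposite strand, and Gm10143 had 1.02, 1.96, 0.885 and 1.25 normalized counts in controls and 5.07, 7.69 and 5.42 in knockouts. Without a stated strand setting the reads of both genes cannot be told apart, and the Fen1 level is uncertain. Gins2 shares 67.3% of its exonic bases with Gse1 and is uncertain in the same way.

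Deoxynucleotide synthesis genes rose in 3 of 4 cases, against 10.4% of all genes tested. Of these 4, 0 were called higher without knockout replicate 2 or without knockout replicate 3. The number was also 0 without control replicates 1 and 4 and without control replicates 2 and 3. Tyms (chromosome 5, 30058202 to 30073617, minus strand), which makes thymidylate, held 151, 135, 103 and 139 in controls and 168, 254 and 223 in knockouts (log2 fold change 0.69, SE 0.18, adjusted p = 0.0242). All knockouts exceeded all controls. Rrm2 (chromosome 12, 24708241 to 24714146, plus strand), the small subunit of ribonucleotide reductase that is made in S phase, held 538, 442, 425 and 507 in controls and 514, 932 and 800.4 in knockouts (log2 fold change 0.61, SE 0.19, adjusted p = 0.0474). Here knockout replicate 1 lay within the control range. Rrm1, the large subunit, was at 1009.5, 852, 858 and 825 in controls and 974, 1327 and 1249 in knockouts (log2 fold change 0.41, SE 0.12, adjusted p = 0.0379), with the same overlap. Tk1, the thymidine kinase of the salvage route, was at 215, 176, 165 and 174 in controls and 139, 222 and 173 in knockouts. Its groups overlapped, and the log2 fold change was -0.054 with a 95% interval of -0.43 to 0.32 (adjusted p = 0.839).

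Neither regulator of the G1/S transition passed the test with limma or edgeR, and neither had an unadjusted p under 0.05. E2f1, an activator of many genes on the list, held 333, 272, 249 and 281 in controls and 211, 285 and 257 in knockouts, a log2 fold change of -0.18 with a 95% interval of -0.48 to 0.12 (adjusted p = 0.363). Ccne1, the cyclin that pairs with CDK2 at S phase entry, held 222, 162, 159 and 153 in controls and 150.1, 224 and 212 in knockouts (log2 fold change 0.16, 95% interval -0.24 to 0.56, adjusted p = 0.553). In both genes knockout replicate 1 was lower than every control, as it was for 4281 of the 12963 genes tested. Without it the log2 fold change was -0.059 for E2f1, 0.34 for Ccne1, -0.11 for Cdt1 and 0.11 for Tk1, none of them called, against 0.89 for Mcm5 and 0.86 for Rrm2.

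The 3 knockout libraries differed in their replication genes. Knockout replicate 1 was the lowest of the 3 knockouts for 30 of 37 members (81.1%, against 40.5% of all genes tested). It was above all controls for 14 members, 37.8%, close to the 35.1% of all genes. It was below all controls for 8 of the 37 members, and for 4281 of the 12963 genes tested. Knockout replicate 2 was above all controls for 33 members (89.2%, against 33% of all genes) and knockout replicate 3 for 28 (75.7%, against 29.2%). Relative to the control mean, the median member stood at 0.11, 0.58 and 0.45 on the log2 scale in knockout replicates 1 to 3. Among controls it was highest in replicate 1 (0.15) and lowest in replicate 3 (-0.11), so control replicate 1 stood above knockout replicate 1. The 7 members for which knockout replicate 1 was not the lowest knockout were Gins3, Gins4, Prim2, Rfc1, Rfc2, Rfc4 and Rfc5, 4 of them loader subunits.

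Leaving out knockout replicate 1 raised the median member from 0.38 to 0.53 and the calls from 16 to 21 (56.8% of members, 9.05% of all genes), of which 15 were the same genes. Cdc6, Mcm2, Mcm3, Mcm4, Pola1 and Pcna were gained and Gins4 was lost. That library also had the highest neutrophil and erythroid sums given above. With the neutrophil score of each library as a covariate, 20 members were called higher (4.86% of all genes), and the median member was 0.67. The neutrophil sum of every knockout lay above that of every control, so this fit cannot separate the score from genotype. Natural killer cell markers moved with genotype in all libraries: 8 of 8 rose, and their sum was 5423 to 9683 in controls and 30815 to 35550.2 in knockouts, knockout replicate 1 included at 30815. Of 8 T cell markers 1 rose, with sums of 3985 to 4883 and 4066 to 5954, and of 9 alveolar macrophage markers 0 passed with limma or edgeR (1 higher at an unadjusted p under 0.05 with limma). All 9 alveolar macrophage fold changes were above 0 (51.9% of all genes tested). Their median marker stood at -0.51, 0.85 and 0.34 relative to the control mean in knockout replicates 1 to 3. Among controls it was highest in replicate 1 (0.47). Knockout replicate 2 was above all controls for 8 of the 9 and knockout replicate 3 for 1. Of 9 monocyte and recruited macrophage markers 5 fell and 1 rose, with sums of 20756 to 31989 and 13397 to 21442. Of 10 neutrophil markers 5 rose, of 7 erythroid markers 0 passed with limma or edgeR (0 at an unadjusted p under 0.05), and of 9 lung epithelial markers 6 rose, with sums of 409.7 to 522 and 660.4 to 1136. None of the markers on these lists was at 0 in every library. The part of these cell types in the levels of the replication genes was not tested.

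The same pathway has genes outside the list. Of 34 other replication genes 9 rose (26.5%, against 10.4% of all genes) and 1 fell (11.3% of all genes), with a median log2 fold change of 0.20. The single-strand binding protein subunits Rpa1 and Rpa2 rose by 0.38 and 0.52 (adjusted p = 0.00691 and 0.00698), and Pold4, the smallest polymerase delta subunit, rose by 0.46 (adjusted p = 0.00382). In each of these 3 genes all knockouts were above all controls, with Rpa2 at 244, 231, 249 and 204 in controls and 348, 337 and 313 in knockouts. The gene that fell was Dna2, a nuclease and helicase, with 552 ± 18.9 (SD) in the 4 controls and 469 ± 30.6 in the 3 knockouts (log2 fold change -0.24, adjusted p = 0.0493).

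Of 26 tested among 27 other nucleotide genes, 3 rose and 0 fell by limma or by edgeR (1 lower at an unadjusted p under 0.05 with limma; median 0.14). At 11.5% the share that rose was close to the 10.4% of all genes. Dut, the dUTPase that keeps uracil out of DNA, rose by 0.68 (adjusted p = 0.0157), and both inosine monophosphate dehydrogenases of guanine nucleotide synthesis rose, Impdh2 by 0.44 (adjusted p = 0.00942) and Impdh1 by 0.39 (adjusted p = 0.0224). Among 22 genes of E2F and G1/S control 2 rose and 2 fell (median 0.14), 9.09% in each direction and no larger a share than the 10.4% and 11.3% of all genes. The 4 genes are given as single values. Rbl2, a pocket protein that represses E2F targets, rose from 1088 ± 120.2 (SD) in the controls to 1626 ± 43.3 in the knockouts (log2 fold change 0.58, adjusted p = 0.00346), and Slbp, which binds histone mRNA, rose by 0.34 (adjusted p = 0.0319). Rb1, the founding pocket protein, fell from 1485 ± 143 to 1076 ± 134 (log2 fold change -0.47, adjusted p = 0.0143), and E2f3, an activating E2F, fell by 0.28 (adjusted p = 0.0446).

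Mitotic genes, which act after S phase, showed a similar order of libraries. Of 25, limma called 12 higher (10.4% of all genes) and 0 lower (11.3%), and edgeR 13 (10.5%) and 0 (11.5%). At an unadjusted p under 0.05 with limma 0 were lower, and the median was 0.61. Those called higher included Cenpa, the centromeric histone (1.07, adjusted p = 0.000754), and Racgap1, a regulator of cytokinesis (0.72, adjusted p = 0.00176). Ube2c, a ubiquitin-conjugating enzyme of mitotic exit, was also among them (0.91, adjusted p = 0.00503). Of the 25 fold changes 24 were above 0, and that of Mki67, a marker of cycling cells, was below (-0.13, adjusted p = 0.629). Mki67 was at 5076, 5019, 4316 and 4443 in controls and 3068, 5029 and 5167 in knockouts. The median mitotic gene stood at 0.16, 0.86 and 0.71 on the log2 scale relative to controls in knockout replicates 1 to 3 and at 0.32 in control replicate 1. Knockout replicate 1 was the lowest knockout for 24 of the 25, against 40.5% of all genes tested. Whether the replication and mitotic lists differ was not tested. Without knockout replicate 1, 12 of 34 other replication genes, 4 of 26 other nucleotide genes, 8 of 22 E2F and G1/S genes and 19 of 25 mitotic genes were higher. Over all genes 9.05% were then called higher and 9.57% lower. In that fit 1 of the E2F and G1/S genes was called lower, and Dna2 was not called. Without control replicates 1 and 4, 5 of 34 other replication genes and 2 of 26 other nucleotide genes were higher. In the same fit 1 of 22 E2F and G1/S genes and 6 of 25 mitotic genes were higher, against 4.8% of all genes.

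**Figure D4:**
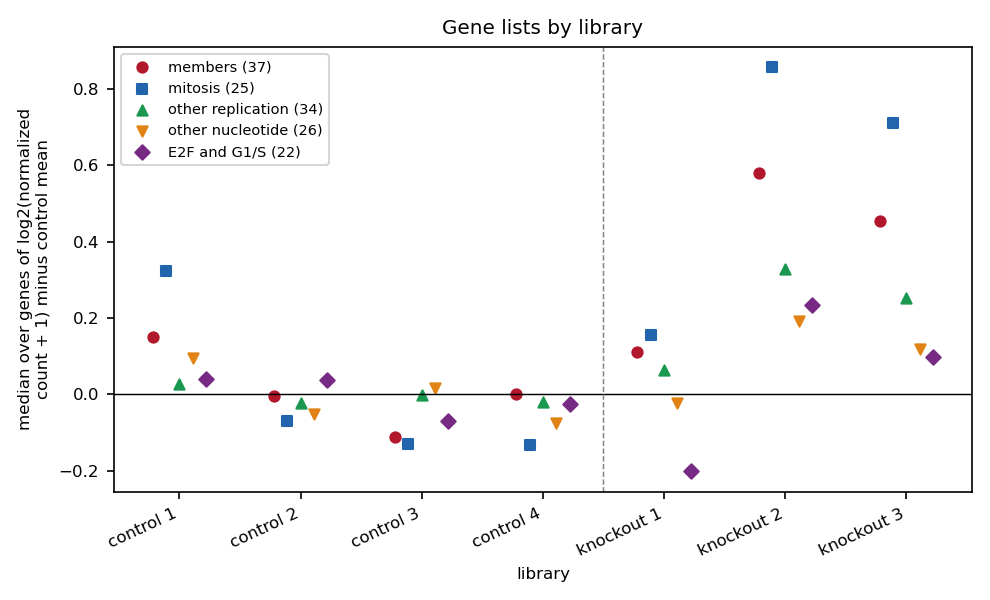
Median over the genes of each list of log2(normalized count + 1) minus the control mean, by library, for the 37 members and 4 other lists (gene numbers in the key). Knockout replicates 2 and 3 stand highest for the members (0.58 and 0.45) and the mitotic genes, and control replicate 1 is the highest control for both.

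In the authors' deposited table, 16 of the 37 members had an adjusted p under 0.05 with a fold change above 0 and 0 with one below (8.92% and 9.92% of the 15826 genes with an adjusted p there). They were not all the same genes as with limma. The authors' adjusted p was 0.0288 for Mcm2 and 0.0276 for Mcm4, which limma did not call. It was 0.101 for Gins4 and 0.0513 for Pold1, which limma called. The authors' deposited table gives a log2 fold change of 0.79 for Prim2 and 0.60 for Mcm6, and it gives -0.029 for Tk1 and -0.16 for E2f1.

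**Figure D5:**
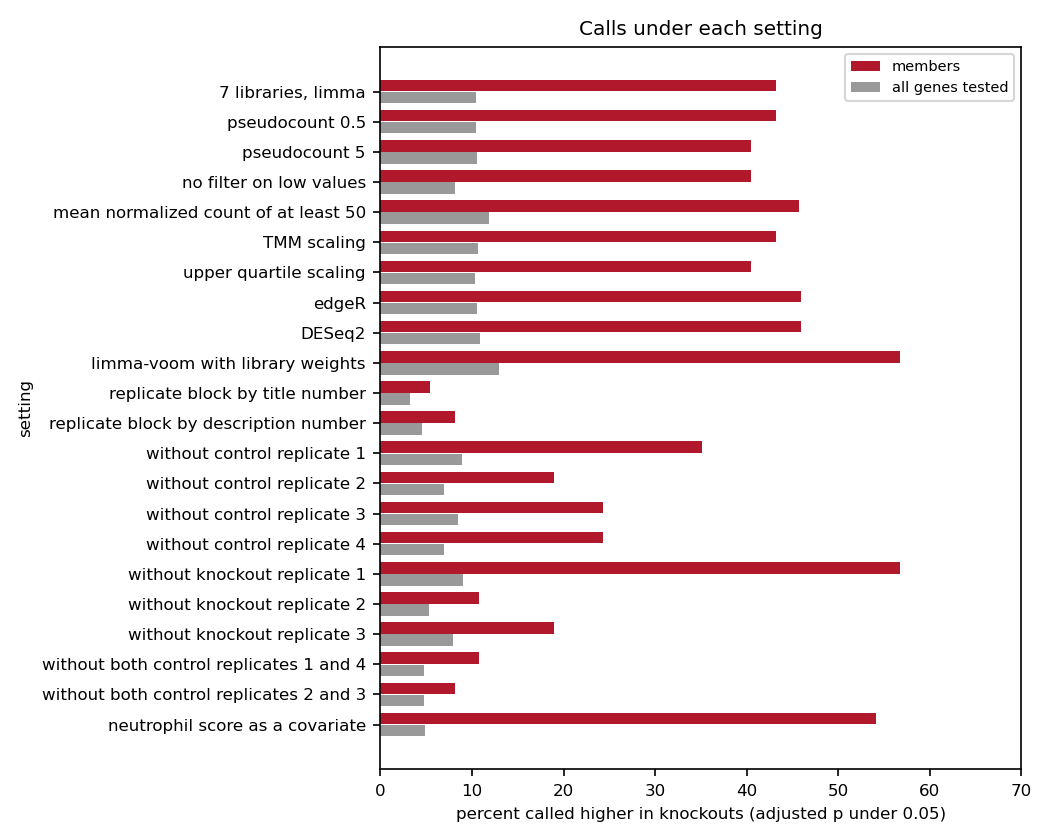
Percent of members (red) and of all genes tested (grey) called higher in knockouts on the x axis, for the fit over 7 libraries and each of 21 alternatives on the y axis. The red bar is 43.2% for the fit over 7 libraries and 56.8% without knockout replicate 1, and it falls to 10.8% without knockout replicate 2, where the grey bar is 5.35%.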

How the data were processed

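Bronchoalveolar lavage RNA was measured in 4 control and 3 knockout libraries, grouped by the titles in the labels. Trizol was used for RNA and a KAPA mRNA kit for the libraries, per the labels' protocols. The submitters' processing notes name cutadapt 1.15, STAR 2.5.3a, HTSeq and DESeq2, and GRCm38 (mm10). The annotation and strand setting used in counting were not stated in these sources. For 16476 genes the authors deposited a normalized signal per library (reads over a size factor). Its other columns hold, per the file headers, the authors' log2 fold change and its error, their p-value before and after adjustment, and their test statistic, a score. All values were whole multiples of 1 step per library (100% within 0.01), so whole reads were recovered, 9903284 to 13353733 per library. A count of 0 means that no read was counted, and an expected level of up to 3 reads was taken as still possible there.

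limma 3.58.1 in R 4.3.3 (eBayes with trend) was fitted to log2(normalized count + 1) for the 12963 genes with a mean of at least 10. P-values were adjusted over all of them by the Benjamini-Hochberg method, with a call at an adjusted p under 0.05. edgeR 4.0.16 (quasi-likelihood test), DESeq2 1.42.0 and limma-voom on recovered reads were alternatives. The members, lists and alternatives were chosen with earlier results of these data known. Values per library are given for the member with the smallest and largest p in each of 7 role groups and for the MCM ring, Pcna, nucleotide and G1/S genes; other lists name up to 3 genes per direction by p. The values shown for Cdc6, Mcm10, Prim1, Pole, Rfc2 and Mki67 were added after they were seen. The neutrophil covariate was the mean log2 level of 10 markers. Positions came from GENCODE M21, which matched 99.8% of identifiers. No library was a copy of another (chi-square of 8.63 to 35.5 per gene within groups). The pipeline was tested on simulated data.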

Additional observations from a re-analysis of the deposited data

Results flagged for a closer look

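Of the 37 members, each tested for 1 control library far from the other 3, only Ccne1 was marked. Control replicate 1 held 222 normalized counts of this S phase cyclin, the nearest other control 162, and the gap took up 0.864 of the range of the 4 controls. Chance alone marks about 1 group in 20. Control replicate 1 was also the highest control for 25 of the 37 members (67.6%, against 27.9% of all genes tested).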

How the results depend on the processing

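The 16 members called higher were 15 to 21 under other pseudocounts, filters, scalings and tests, and 4 to 21 with single libraries left out. The fit with the neutrophil covariate, which overlaps with genotype, gave 20. Leaving out the controls in pairs gave 4 (replicates 1 and 4) and 3 (replicates 2 and 3). The correlation of deviations from group means between same-numbered libraries was -0.229, -0.0253 and -0.188 for the title numbers. For the description numbers it was -0.0768, -0.285 and 0.0762. With so few libraries these values cannot settle whether the numbers pair the libraries. With the replicate number as a block, 2 members were called by title number (3.27% of all genes) and 3 by description number (4.56%). No member was called lower by limma, edgeR, DESeq2 or limma-voom in any of the 21 alternatives. Of 775 fold changes of single members under alternatives, 629 kept direction and side of the threshold, 112 lost the call, 26 gained it and 8 changed sign, 0 of these from a called member. With single libraries left out, Gins1 ranged from -0.076 (knockout replicate 2) to 0.25 and Tk1 from -0.23 to 0.11 (knockout replicate 1), with 0.028 for Tk1 if control replicate 1 was dropped. Tk1 had 0.064 with limma-voom, 0.028 with the description block, 0.039 if control replicates 1 and 4 were both dropped and 0.35 with the neutrophil covariate. E2f1 had 0.13 with that covariate. The cause was not tested. The Ntn1 difference was below 0 in all 11 alternatives; in the 9 that leave out libraries the smallest p an exact permutation test can give is 0.0667 or 0.1, so they could not reach the threshold. Depth limits Fen1, with 6.27 to 19.2 normalized counts, and Ntn1 most.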
